A study of Mus musculus with 8 samples.

Results

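The inter-alpha-trypsin inhibitor family was followed in liver RNA of Eps8KO mice through Ambp and the numbered Itih genes. All spots whose gene symbol was Ambp or Itih with a number were taken, which gave 6 genes (Ambp, Itih1, Itih2, Itih3, Itih4 and Itih5) of 8789 named genes. Each gene had 1 spot, and all 6 had a value in all 4 mice, as had 8214 named genes. Ambp and Itih4 were chosen by their low Eps8KO over WT ratio on these same arrays, so the ratios of the family are given as a description and were not tested. The samples were livers of 4 male Eps8KO (EPS8 -/-) mice, 17 weeks old, and a pool of liver RNA from WT males of the same age. RNA of each Eps8KO mouse was hybridised against the WT pool on 2 arrays, labelled with Cy5 on one and with Cy3 on the other, which gave 8 two-colour cDNA arrays. The mice of the expression profile came from heterozygous crosses on a C57BL/6 background, and the knockout is carried by every tissue and not by the liver alone. The pool held RNA of 5 WT mice going by the IDs listed with the samples, of 6 going by the protocol for labelling and of 4 going by the series design, and it counts as 1 control sample. No spot was named Eps8, so the deletion was not checked on the arrays.

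Inter-alpha-trypsin inhibitors are plasma proteins made in the hepatocyte. Ambp encodes a precursor that is cleaved into the lipocalin alpha-1-microglobulin and the Kunitz inhibitor bikunin, and bikunin is joined to heavy chains encoded by Itih1, Itih2 and Itih3 through a chondroitin sulfate chain. The heavy chains can be transferred to hyaluronan in the extracellular matrix. Itih4 encodes a related plasma protein that does not carry bikunin and is an acute phase protein, and in human liver cells the members respond unequally to inflammation. Itih5 is known mainly from tissues outside the liver.

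Itih4, Itih3 and Itih1 lie side by side on chromosome 14, Itih2 and Itih5 are neighbours on chromosome 2, and Ambp lies on chromosome 4. The 250 bases before the start of each gene, as set in the promoter sequences used, were searched on both strands for 7 short motifs. The 4 promoters on which the comparison below turns are shown 5′ to 3′ on the strand of the gene (RefSeq, GRCm38.p6), with matches in capitals. They are those of Ambp (chr4:63154173-63154422, minus strand), Itih4 (chr14:30886226-30886475, plus strand), Itih3 (chr14:30923588-30923837, minus strand) and Itih1 (chr14:30943290-30943539, minus strand). On the minus strand the Itih3 gene starts at 30923787 in RefSeq, so most of its window lies inside the annotated gene. The Itih5 window, not shown, also reaches a few bases into its gene.
Ambp: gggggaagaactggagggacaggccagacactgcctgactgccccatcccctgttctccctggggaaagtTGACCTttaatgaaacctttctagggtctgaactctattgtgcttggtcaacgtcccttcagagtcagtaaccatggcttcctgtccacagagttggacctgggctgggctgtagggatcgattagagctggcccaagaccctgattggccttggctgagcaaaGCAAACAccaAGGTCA
Itih4: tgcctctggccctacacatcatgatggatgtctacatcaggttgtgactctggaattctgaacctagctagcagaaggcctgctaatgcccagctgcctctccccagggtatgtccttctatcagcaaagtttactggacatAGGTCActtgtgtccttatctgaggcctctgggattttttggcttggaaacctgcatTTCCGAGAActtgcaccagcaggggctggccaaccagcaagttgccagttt
Itih3: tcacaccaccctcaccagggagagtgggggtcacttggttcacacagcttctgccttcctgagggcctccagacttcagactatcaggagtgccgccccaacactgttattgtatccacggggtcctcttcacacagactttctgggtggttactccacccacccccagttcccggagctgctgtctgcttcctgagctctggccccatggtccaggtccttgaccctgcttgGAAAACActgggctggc
Itih1: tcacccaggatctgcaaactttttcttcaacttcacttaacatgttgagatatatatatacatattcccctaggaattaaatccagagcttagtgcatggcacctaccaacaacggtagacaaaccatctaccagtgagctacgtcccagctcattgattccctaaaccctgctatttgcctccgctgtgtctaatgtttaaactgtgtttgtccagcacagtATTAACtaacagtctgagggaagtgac
The Itih4 promoter held the STAT3 motif TTCNNNGAA, 51 to 43 bases before the start, which reads the same on both strands and is found in 7.02% of 32851 mouse promoters of this length. It also held the nuclear receptor half-site TGACCT that HNF4 can bind, on the opposite strand, 108 to 103 bases before the start. The Ambp promoter had this half-site 180 to 175 bases and, on the opposite strand, 6 to 1 bases before the start, and 14.02% of promoters hold it. The FOXA motif TGTTTNC was matched on the opposite strand in Ambp and, inside the annotated gene, in Itih3, against 17.8% of promoters. In Itih1 the match was to GTTAAT, an HNF1 half-site found in 6.43% of promoters, again on the opposite strand. The C/EBP motif TTGCNNAA (9.56% of promoters) was matched in Itih2 alone, and CTGGGAA (9.10%) and the TATA motif TATAAA (12.4%) in none of the 6 genes. A match says only that the letters are present.

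All values below are log2 ratios of Eps8KO over the WT pool, so that values below 0 mean a lower signal in Eps8KO liver than in the pool. The labels give the dye of each RNA but not which dye is on top of the deposited ratio. Cy5 over Cy3 is likely, because it is the usual form and because of the study's list of genes lower in Eps8KO liver. Orm1 and Hpx, outside the family, have the largest falls in that list, and with Cy5 on top they are at -2.63 and -2.10. The sizes did not all follow the list. It gives Cp a larger fall than Fga, whereas here Cp was at -0.39 ± 0.48 (0.09 with Eps8KO in Cy3 alone) and Fga at -1.77 ± 0.50. Ambp is in that list too, so the sign of its ratio is not independent of this choice. Itih4 is not in the list. With Cy3 on top every sign in the text would turn. The arrays held 17968 to 18802 values of 20355 spots, with medians between -0.28 and -0.08, and intensities were not analysed here. Over all spots, before any sign was turned, the 2 arrays of a mouse correlated at a median of only 0.12. Arrays of different mice correlated at 0.12 with opposite dyes and 0.13 with the same dyes. In the fit of limma to the 4 mouse means, 0 of 15455 features passed an adjusted p under 0.05 (0.0%), while at an unadjusted p under 0.05 there were 478 lower features (3.09%) and 333 higher ones (2.15%). The spot numbers of the platform table were shifted by 32 against the rows of the values. At this shift the spots of 99 abundant liver enzyme probes varied less between arrays than at any other of 2001 shifts tried (mean percentile of the spread 34.6, next lowest 39.0, and 51.5 with no shift), and every gene name below rests on it. Read in the same way, single members did not all favour the shift. The percentile of the spread was 39.1 for Itih2 and 79.3 for Itih3 with the shift, against 17.0 and 19.5 for the rows so named without it. For Itih4 it was 27.2 against 48.9, for Itih1 23.1 against 34.7, for Itih5 6.4 against 94.0 and for Ambp 4.85 against 5.64.

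Itih4 had the lowest ratio of the family. Its ratio was -1.81, -1.77, -1.22 and -2.13 in Eps8KO mice 1 to 4 relative to the WT pool. The mean of -1.74 ± 0.38 (SD, n = 4 mice) is 3.33-fold lower in Eps8KO liver, and it ranked 195 from the lowest of 15455 features. Itih4 was below 0 on 8 of 8 arrays. It was the 1 member below 0 on each of its arrays, which held for 0.571% of the 11727 features measured on all 8 arrays. Since Itih4 was chosen on this ratio, nothing is read from that share. In bulk liver RNA, fewer cells of a type and less RNA per cell cannot be told apart.

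Ambp, the gene of the bikunin light chain, was less reduced. Its ratio was -0.68, -0.55, -0.50 and -0.87 in Eps8KO mice 1 to 4. The mean of -0.65 ± 0.16 (SD, n = 4 mice) is 1.57-fold lower in Eps8KO liver. The SD of Ambp between mice was small, since the median over all features was 0.43. The sign of the Ambp ratio depended on the dye of the Eps8KO RNA, as set out with the single arrays.

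The 3 heavy chain genes that carry bikunin did not share one ratio. Itih3 was -1.75, -1.30, 0.04 and -1.43 in Eps8KO mice 1 to 4, with a mean of -1.11 ± 0.79 (SD, n = 4 mice). It was thus low in 3 mice, while in mouse 3 its 2 arrays had opposite signs (-1.81 and 1.89) and cancelled. The mean of Itih3 without mouse 3 was -1.49. Itih1 was -0.25, -0.12, -0.32 and -0.39 in the same mice, with a mean of -0.27 ± 0.12. Itih2 was 0.55, 0.04, -0.37 and -0.54, which gave a mean of -0.08 ± 0.48, less than the spread between the mice. Itih5 was 0.15, 0.22, -0.08 and 0.01 and averaged 0.07 ± 0.14, also within the spread. The Itih5 value of mouse 1 comes from its Cy5 array alone, and Itih5 averaged 0.33 with Eps8KO in Cy5 and -0.29 with Eps8KO in Cy3. Below 0 in 4 of 4 mice were 3 members, Itih4, Ambp and Itih1, and 7.07% of all features. Itih4 and Ambp were chosen by their low ratio, so nothing is read from this count.

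**Figure D1:**
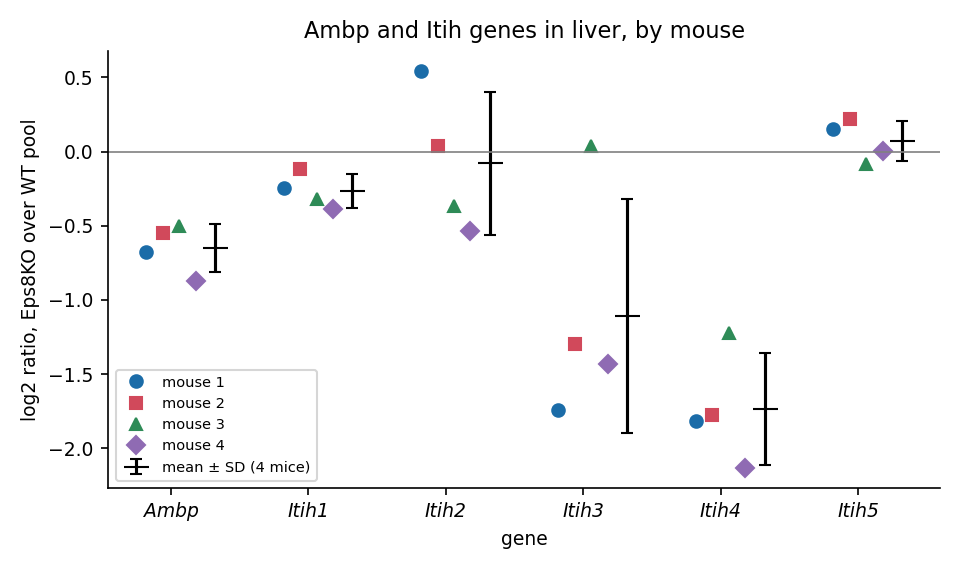
Log2 ratio of Eps8KO over the WT pool (y axis) for the 6 genes (x axis). Each symbol is 1 mouse (the mean of its arrays) and the bar is the mean ± SD of 4 mice. Itih4 lies between -2.13 and -1.22, Itih3 is low in 3 mice and 0.04 in mouse 3, and Itih2 and Itih5 lie on both sides of 0.

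Within each mouse the order of the members was partly the same. The ratio of Itih4 was below that of every other member in 4 of 4 mice. Against Ambp the mean difference was 1.09 ± 0.25 (Ambp minus Itih4), against Itih1 it was 1.47 ± 0.38, and against Itih2 it was 1.66 ± 0.62 (SD, n = 4 mice). Against its chromosomal neighbour Itih3 the difference (Itih3 minus Itih4) ran from 0.07 to 1.26, so in 1 mouse these 2 genes were nearly level. Ambp was below Itih1, Itih2 and Itih5 in 4 of 4 mice, and below Itih3 in 1 of 4. Itih1 and Itih2 differed by 0.19 ± 0.42, which is within their spread. Such differences between genes on the same arrays do not depend on how an array was centred.

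The 2 arrays of a mouse gave different ratios for most of the family. With Eps8KO RNA in Cy5, Ambp had ratios of 0.08, 0.44, 0.50 and 0.04 in mice 1 to 4. With Eps8KO RNA in Cy3 it had -1.43, -1.54, -1.50 and -1.78. The groups of arrays did not overlap, and the sign differed between them. A mean above 0 with Cy5 and below 0 with Cy3 was found for 4 of the 6 members (Ambp, Itih1, Itih2 and Itih5) and for 22.1% of features measured on 8 arrays. Itih4 was below 0 in both, with a mean of -1.09 ± 0.33 with Eps8KO in Cy5 and -2.38 ± 0.44 with Eps8KO in Cy3 (SD, n = 4 arrays each). It was below Ambp, Itih1 and Itih2 on 8 of 8 arrays each, and below Itih3 on 6 of 8.

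**Figure D2:**
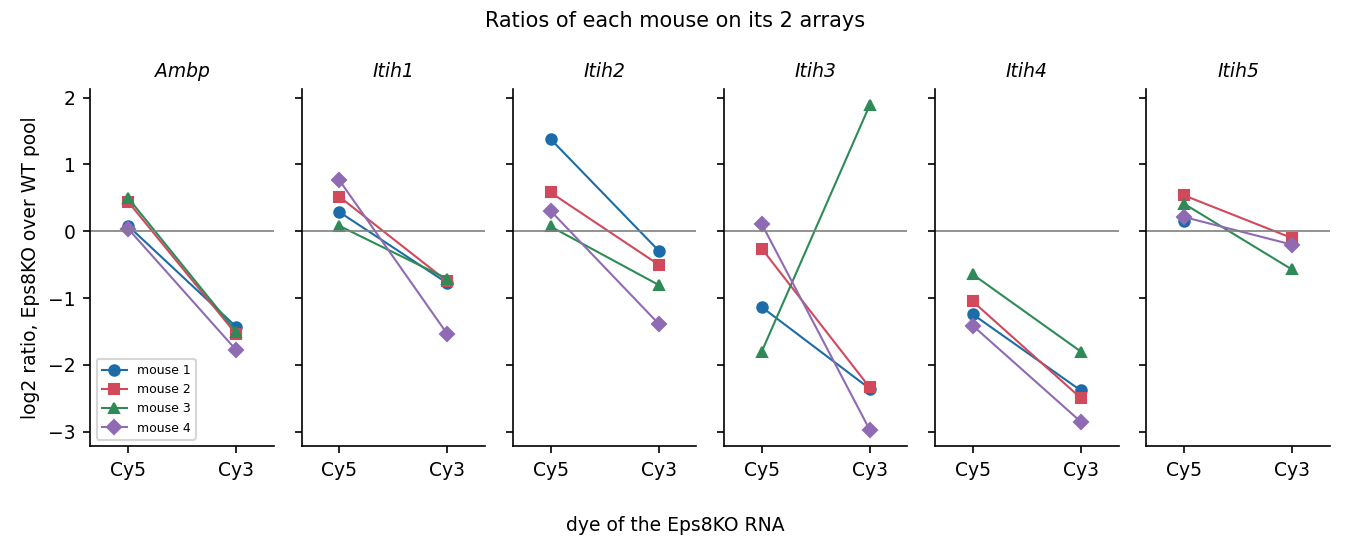
Log2 ratio of Eps8KO over the WT pool (y axis) on the 2 arrays of each mouse, by the dye of the Eps8KO RNA (x axis). A line joins the arrays of 1 mouse. Ratios are lower with Cy3 for every measured pair of arrays except Itih3 in mouse 3, and the array missing is that of Itih5 in mouse 1 with Cy3.

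The mean of the unturned values of the 2 arrays of a mouse measures the dye and not the genotype, because each RNA is once in Cy5 and once in Cy3. This Cy5 over Cy3 value did not enter the choice of the members and was tested with limma over the 11602 features measured on 8 arrays, with array medians set to 0. Ambp was higher in Cy5 by 1.07 ± 0.15 (SD, 4 of 4 mice, adjusted p = 0.0426 in limma) and Itih4 by 0.80 ± 0.13 (4 of 4 mice, adjusted p = 0.0426 in limma). Itih2 was higher in Cy5 by 0.82 ± 0.23 (adjusted p = 0.0437 in limma). Itih1 was at 0.83 ± 0.38 and missed the threshold (adjusted p = 0.0545 in limma), and Itih3 at 0.49 ± 1.52 did too (adjusted p = 0.608 in limma). Higher in Cy5 at an adjusted p under 0.05 were thus 3 of the 5 members tested, against 401 features or 3.46% of all. With any 1 mouse left out, the adjusted p of these 3 members lay between 0.0872 and 0.162. The mean of both arrays, used for the ratios above where a mouse had both, takes this dye effect out. A ratio from 1 orientation alone does not, and the Itih5 ratio of mouse 1 is such a value.

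Itih3 had an array that went against the others. With Eps8KO RNA in Cy3 its ratio was -2.36, -2.34, 1.89 and -2.97 in mice 1 to 4, and with Eps8KO RNA in Cy5 it was -1.14, -0.26, -1.81 and 0.11. In mouse 3 the deposited values of both arrays were negative, -1.81 and -1.89, so that turning the sign of one made their mean 0.04. The low mean of Itih3 therefore rests on 3 mice, and the source of the difference in mouse 3 was not tested.

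Genes related to the family by their role were taken from lists. In the list of positive acute phase proteins, whose liver production rises in inflammation, 21 of 24 measured genes had a mean ratio below 0 and 15 were lower at an unadjusted p under 0.05, against 47.2% and 3.09% of all features. The median of the list was -1.30, against 0.02 over all features, and it was -0.86 with Eps8KO in Cy5 and -1.88 with Eps8KO in Cy3. It was -1.10 without mouse 3, and likewise -1.10 without values at the maximum of an array. The lowest were Mt1, a metallothionein, at -3.53 ± 0.44, and Saa3, a serum amyloid A, at -3.30 ± 0.94. Orm1 (orosomucoid) was at -2.63 ± 0.35, Hp (haptoglobin) at -2.45 ± 0.22 and Fgl1 (fibrinogen-like protein) at -2.33 ± 0.30 (SD, n = 4 mice each). At the other end were Orm2 at 0.20 ± 0.70 and Mug1, a murinoglobulin, at 0.11 ± 0.14. Orm1 and Orm2 are close copies, so cDNA spots of one can take up RNA of the other. With its mean of -1.74, Itih4 lay below the list median, and Ambp at -0.65 and Itih1 at -0.27 above it. The names of the spots were first found in part with acute phase genes, so the low ratios of this list are not independent of the naming.

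Negative acute phase proteins, whose production falls in inflammation, had a median of 0.29, which was 0.15 without mouse 2. Of 13 measured genes 0 were lower and 3 were higher at an unadjusted p under 0.05. These were Cyp3a11, a cytochrome P450, at 0.86 ± 0.41, Apoa1, the apolipoprotein of HDL, at 0.34 ± 0.14, and Klkb1, plasma kallikrein, at 0.30 ± 0.06 (SD, n = 4 mice each). All 3 were above 0 in 4 of 4 mice. With Eps8KO in Cy3 alone, however, Apoa1 averaged -0.64 and Klkb1 -0.36, whereas Cyp3a11 stayed at 0.45. The lowest of the list were Trf at -0.58 ± 0.74 and Serpinc1 at -0.52 ± 0.90. Plasma protease inhibitors had a median of -0.17 (0.52 with Eps8KO in Cy5 alone), with 3 of 14 measured genes lower and 0 higher. The 3 were Serpina10, the inhibitor of factor X, at -1.17 ± 0.63, Serping1, the C1 inhibitor, at -0.47 ± 0.25, and Pzp, an alpha-macroglobulin, at -0.44 ± 0.24. With Eps8KO in Cy5 alone, Serping1 averaged 0.45 and Pzp 0.43, as Ambp was above 0 there, while Serpina10 was at -1.06. The lowest mean of the list was that of A2m at -2.63 ± 4.74, and the highest that of Serpinf1 at 0.25 ± 0.16.

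**Figure D3:**
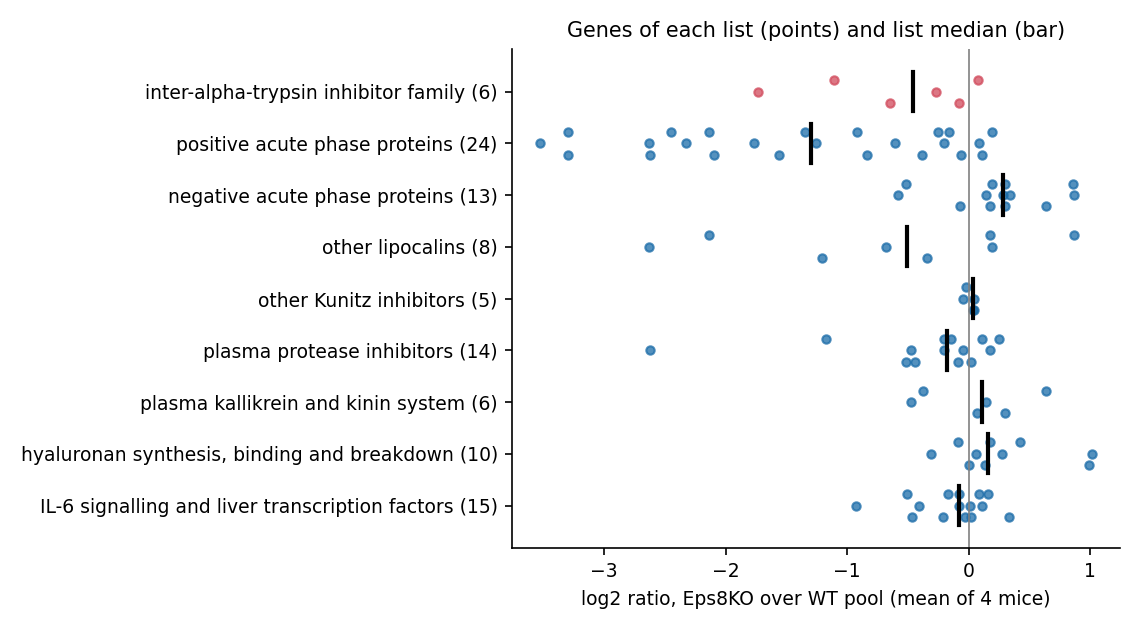
Mean log2 ratio of Eps8KO over the WT pool over 4 mice (x axis) for the measured genes of 9 lists (y axis, number measured in brackets). Each point is a gene (its vertical offset is for display alone) and the bar is the list median, which is -0.46 for the inter-alpha-trypsin inhibitor family (0.30 with Eps8KO in Cy5 alone), -1.30 for positive and 0.29 for negative acute phase proteins.

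Ambp is both a lipocalin and a Kunitz inhibitor. Of 8 other lipocalins measured, 3 were lower at an unadjusted p under 0.05, and the list median was -0.51. This median rested on mouse 2 and on values at the maximum of an array, since it was 0.0042 without that mouse and -0.08 without those values. Besides Orm1 these were Lcn2 (lipocalin 2, of neutrophils and inflamed liver) at -2.14 ± 0.63 and Apom (apolipoprotein M, made in the hepatocyte) at -0.34 ± 0.13, which was 0.44 with Eps8KO in Cy5 alone. Rbp4, the carrier of retinol, was at 0.87 ± 2.78, which is no difference beyond the spread. Of 5 other Kunitz inhibitors 0 passed in either direction, with values from -0.05 for Spint2, an inhibitor of the hepatocyte growth factor activator, to 0.05 for Wfikkn2. The list median was 0.04 (-0.14 with Eps8KO in Cy3 alone and -0.17 without mouse 3).

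For the partners of the family in the matrix and in plasma, counts stand beside 3.09% lower and 2.15% higher of all features. With so few genes a count of 0 is near these shares, and nothing is read from it. Among 10 measured genes of hyaluronan synthesis, binding and breakdown 0 were lower and 0 higher at an unadjusted p under 0.05. Ugdh, which makes the UDP-glucuronate used for hyaluronan and chondroitin sulfate, was at -0.31 ± 0.32, and Cd44, the hyaluronan receptor, at 1.02 ± 3.16 on 6 arrays. Of 10 genes for the chondroitin sulfate linkage and chain and of 4 proprotein convertases 0 passed, with Furin, a convertase of secreted precursors, at 0.02 ± 0.29. Tsg6 (Tnfaip6), which transfers heavy chains to hyaluronan, had no named spot. In the plasma kallikrein and kinin system, to which human ITIH4 belongs as a substrate of kallikrein, 2 of 6 genes were lower and 1 was higher. These were Serping1, given above, Kng1, the kininogen, at -0.37 ± 0.22 (0.54 with Eps8KO in Cy5 alone), and Klkb1 at 0.30. Of 15 genes of IL-6 signalling and liver transcription factors 0 passed. Means were below 0 for 9 of the 15, and the list median was -0.08 (-0.35 with Eps8KO in Cy5 alone). The highest means were those of Cebpa at 0.33 ± 0.27 and Stat3 at 0.16 ± 0.53. The lowest were those of Il6 at -0.93 and Ptpn11 at -0.51, each on 5 arrays and with a spread larger than its mean. The 6 trypsin-like and other serine proteases had means from -0.20 for F10, coagulation factor X, to -0.05 for Elane, neutrophil elastase, and 0 passed.

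The genes with the array pattern most like that of a member were found by the smallest root mean square difference of the 8 ratios, over 6564 other named genes measured on all arrays. For Itih4 these were Fgg (0.38), Fgb (0.52), Hpx (0.63), Fga (0.65) and Igfbp1 (0.76), where the median over all genes was 2.04. Fga, Fgb and Fgg encode the 3 chains of fibrinogen, Hpx encodes hemopexin, and Igfbp1 a binding protein of insulin-like growth factors. Like Itih4, all 5 were below 0 on 8 of 8 arrays. For Ambp they were Clu (0.18), Ly6e (0.22), Vtn (0.25), Pzp (0.26) and Calr (0.28), against a median of 1.40. Clusterin and vitronectin, the products of Clu and Vtn, are plasma proteins, and calreticulin (Calr) is a chaperone of the endoplasmic reticulum. With Eps8KO in Cy5 all 5 had means above 0, and with Eps8KO in Cy3 below 0, as Ambp had. For both members the near genes were picked by closeness on these same 8 arrays, so the shared signs follow largely from the choice.

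**Figure D4:**
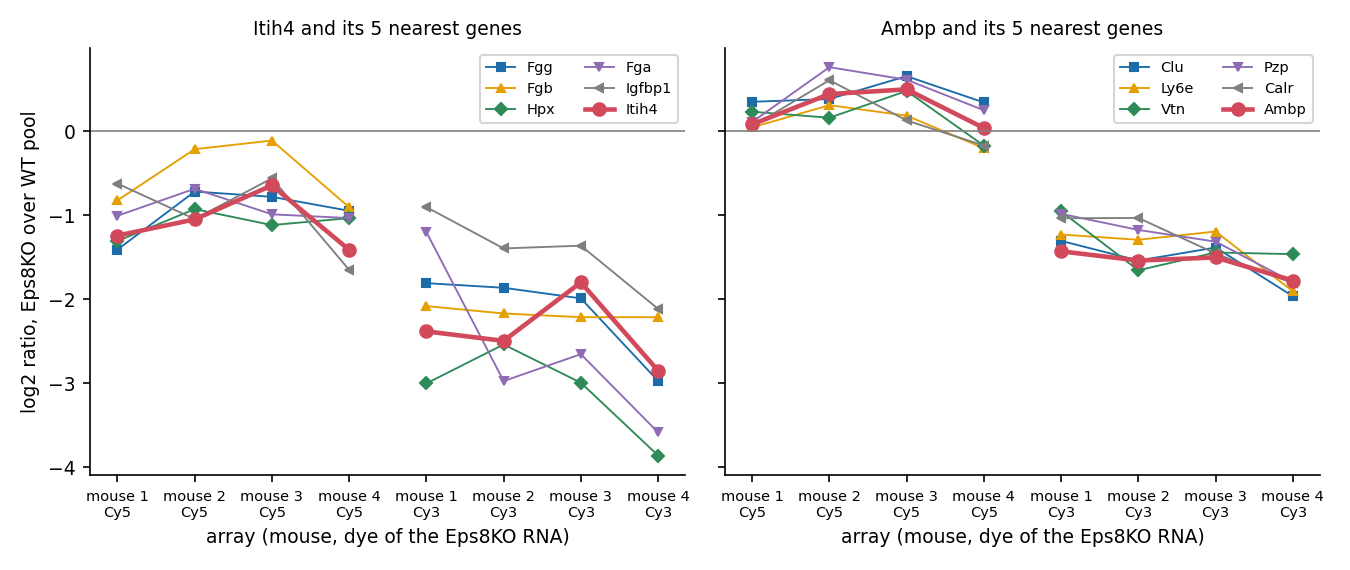
Log2 ratio of Eps8KO over the WT pool (y axis) on the 8 arrays (x axis, mouse and dye of the Eps8KO RNA) for Itih4 (left, thick line) and Ambp (right, thick line) with their 5 nearest genes. The genes near Itih4 are below 0 on all arrays, and those near Ambp have means above 0 with Cy5 and below 0 with Cy3. They were picked by closeness on these arrays, so the shared signs follow largely from the choice.

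For Itih2 the nearest gene was Serpinf2, the plasmin inhibitor (0.28), and for Itih1 it was Meltf (0.18), a melanotransferrin, with medians of 1.11 for both over all genes. Itih3 had no gene as near. Its first was Slc66a2 at 0.68, and the next, Inpp5d, was at 1.25. The points share the pool, the dyes and the arrays, and the measure follows the size of the ratios as well as their pattern.

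On chromosome 14, 6 of the 10 protein-coding genes around the Itih4, Itih3 and Itih1 block (5 on either side) were measured, with a median of -0.20. Their lowest mean of -0.89 was above the means of Itih4 and Itih3. This did not hold for Itih1 at -0.27, since the neighbours Prkcd (-0.41), Spcs1 and Glt8d1 had lower means. On the side of Itih4, Mustn1 was at -0.05 ± 0.17 and Stimate at 0.14 ± 0.33. Beyond Itih1, Nek4 was at 0.21 ± 0.45, and Spcs1, a subunit of the signal peptidase, at -0.35 ± 0.08, lower at an unadjusted p under 0.05. Glt8d1 was at -0.89 ± 1.93, with a spread larger than its mean. Next to Ambp on chromosome 4, Kif12 was at -0.02 ± 0.34 and Col27a1 at 0.01 ± 0.27. The gene after these is Orm1, at -2.63 ± 0.35, another lipocalin, so that Ambp and Orm1 are separated by 2 genes without such a ratio. Around Itih2 and Itih5 on chromosome 2, 3 of 10 neighbours were measured. Atp5c1, a subunit of ATP synthase, was at 0.22 ± 0.16 and Celf2, an RNA-binding protein, at 0.07 ± 0.10. Il2ra, a chain of the interleukin-2 receptor, was at -1.37 ± 1.17, below 0 in 4 of 4 mice and lower at an unadjusted p under 0.05, and thus below both members beside it. These neighbours were picked by their place and were named after their values were seen.

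**Figure D5:**
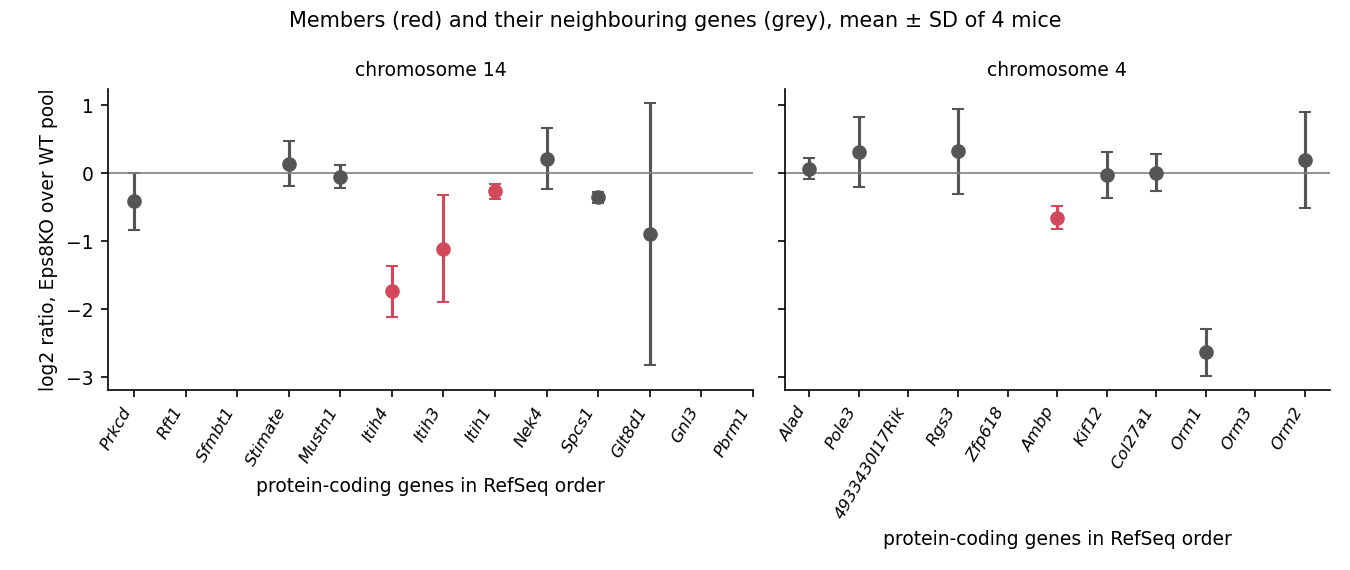
Log2 ratio of Eps8KO over the WT pool (y axis, mean ± SD of 4 mice) for the Itih genes of chromosome 14 and for Ambp on chromosome 4 (red) and the 5 protein-coding genes on either side (grey), in their RefSeq order (x axis, not to scale). Names without a point had no named spot with values in 4 mice. Itih4 is at -1.74 and Orm1 at -2.63, while Kif12 and Mustn1 lie near 0.

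The arrays give ratios and no levels, so the presence of liver markers could not be checked, but their ratios were. Of 9 measured hepatocyte markers 1 was lower, Fgb at -1.34 ± 0.20, and 0 were higher at an unadjusted p under 0.05. Fgb is also in the list of positive acute phase proteins. Alb (albumin) was at 0.30 ± 0.32. The list median was 0.03 (0.60 with Eps8KO in Cy5, -0.53 with Eps8KO in Cy3, and -0.03 without mouse 2 or -0.02 without mouse 3). Over the 10 marker lists for the cells of liver and its surroundings, 6 of 61 measured genes were lower and 0 higher. Of all features 3.09% were lower and 2.15% higher. Among the 6 were Krt7 of cholangiocytes at -1.51 ± 0.40, on 4 arrays alone, and Fabp4 of adipocytes at -0.44 ± 0.31 (0.01 with Eps8KO in Cy5 alone). List medians lay between -0.39 for the exocrine pancreas (0.45 with Eps8KO in Cy3 alone) and 0.13 for lymphocytes (-0.28 with Eps8KO in Cy5 alone and 0.03 without mouse 1). Of the 8 neutrophil markers 1 was lower, Lcn2, which is also an acute phase gene, and of the 4 pancreas markers 2 were, Cpa1 at -0.95 ± 0.67 and Cela3b at -0.62 ± 0.36. With Eps8KO in Cy3 alone Cpa1 averaged 0.96 and Cela3b 0.35. The part of these cells in the ratios of Ambp and Itih4 was not tested.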

How the data were processed

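Total liver RNA was reverse transcribed, labelled indirectly with Cy3 or Cy5 and hybridised to glass cDNA arrays, with dyes swapped for each mouse. The authors normalised total intensity in MIDAS to a mean log2 ratio of 0, checked background in both channels, and filtered with a tolerance policy and a check of dye swap pairs. The deposited values are log2 ratios, and whether they are those after these steps is not stated. Array means lay below 0, and 48 to 103 spots of an array shared its maximum, so their values are limits. No member had such a value.

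Each of the 8 deposited columns entered the analysis. Of 20355 spots 12367 were named through the platform table, whose probe numbers were shifted by 32 against the rows. All its 12398 probes with 1 symbol matched RefSeq genes of GRCm38.p6 by gene ID. The genome build behind the spots is not given in the sources used here, so only the order of genes was taken from RefSeq. Arrays whose Cy3 channel held the Eps8KO RNA had their sign turned, and the arrays of each mouse, then the spots of each gene, were averaged. Where a mouse had 1 array of a spot, that value was used, as for Itih5 in mouse 1. A feature needed values in 4 mice. Mouse means were tested against 0 in R 4.3.3 with limma 3.58.1 (lmFit, eBayes), two-sided, with Benjamini-Hochberg adjustment. Tables and figures were made with pandas 2.3.3, NumPy 2.4.6 and Matplotlib 3.10.9 under Python 3.11.15. The fit was tested on simulated data. The WT pool is 1 control sample, so p-values leave out the spread between WT mice. The number of arrays limits the precision.

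The members and lists were chosen with earlier results of these data known. Named genes were drawn from the members, the 5 genes nearest to each member and chromosomal neighbours. From each list they were drawn from the 2 lowest and 2 highest genes, with up to 4 more past an unadjusted p under 0.05. Not every gene so marked is printed. Alternatives were array medians set to 0, 1 dye orientation alone, each mouse left out, and values at the maximum of an array left out. Further ones were values on 8 arrays, a dye term with the mouse as a random block, a robust prior and each probe as a feature. Naming with no shift was also tried. SAM, named in the methods without settings, was not run.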

Additional observations from a re-analysis of the deposited data

Results flagged for a closer look

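2 of 17 sets of 4 values of the members held a value far from the other 3, by Dixon's ratio of gap to range, where chance marks about 1 set in 20. Both were arrays with Eps8KO RNA in Cy3. For Itih3 the array of mouse 3 had a ratio of 1.89, while the other 3 arrays lay between -2.97 and -2.34 (gap over range 0.87). For Itih1 the array of mouse 4 had a ratio of -1.54, while the other 3 lay between -0.78 and -0.71 (gap over range 0.921).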

How the results depend on the processing

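The ratios of the members kept their sign with array medians set to 0 and with values at the maximum of an array left out. They moved by less than 1 SD between mice. Ambp lay between -0.70 and -0.58 and Itih4 between -1.91 and -1.60 when each mouse was left out. With Eps8KO in Cy5 alone Ambp was 0.26, Itih1 0.41 and Itih4 -1.09, and with Eps8KO in Cy3 alone Ambp was -1.56 and Itih4 -2.38. Without the shift in spot numbers the rows then named Ambp and Itih4 had ratios of 0.025 and -0.77. Each member had 1 spot, so single probes and a median over probes gave the same value. The dye effect of Ambp lay between 1.04 and 1.14 and that of Itih4 between 0.75 and 0.85 when a mouse was left out, with adjusted p between 0.0872 and 0.162 in limma, since 3 mice entered. On values that were not centred they were 0.91 and 0.65 and passed, but Itih2 at 0.66 did not (adjusted p = 0.0554 in limma). With a mouse left out, lower and higher features at an unadjusted p under 0.05 numbered 381 to 463 and 278 to 401, with 0 past the adjusted threshold. Eps8KO in Cy5 alone gave 1661 lower and 612 higher features unadjusted. Eps8KO in Cy3 alone gave 906 lower and 1921 higher unadjusted, and 8 lower and 3 higher adjusted. Values on all 8 arrays gave 11 lower and 1 higher adjusted, and a dye term with the mouse as a random block 30 lower and 5 higher. In this last fit the correlation between the arrays of a mouse was estimated at -0.0024. It therefore counted the 8 arrays nearly as separate samples, and its counts do not hold at the level of the mouse. The cause of these differences in counts was not tested. Of 22 list medians, 14 moved by over 1 SD between mice with Eps8KO in Cy5 alone and 11 with Eps8KO in Cy3 alone. Without mouse 2 there were 2 that moved, without mouse 3 also 2, and without mouse 1 or mouse 4 there were 0. Without values at the maximum of an array 1 moved. No paired analysis was possible because the labels give 1 group of mice, each measured against the same pool. Signal over background of single spots is not known, since scanner intensities were not analysed here.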
